A study of Mus musculus with 6 samples.

Results

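The 7 genes described here, *S1pr1*, *S1pr4*, *S1pr5*, *Cd69*, *Klf2*, *Foxo1*, and *Ccr7*, set whether a T cell stays in a tissue, leaves it into lymph or blood, or returns to a lymph node. They were taken by name, with their regulators, from the 57126 genes in the deposited count table, with earlier results of these data known. The study had already reported lower *S1pr1* in these T_RM-like cells. RNA was sequenced from OT-I CD8+ T cells, cells of a mouse line with a transgenic T cell receptor for a peptide of ovalbumin, after 6 days of expansion. Both groups started as CD8+ cells, taken from spleens and lymph nodes of OT-I mice with magnetic columns, and received nano-aAPCs, nanoparticles that carry a peptide-MHC complex and an antibody to CD28. The 3 T_Eff samples were grown with mIL-2, and the 3 T_RM-like samples with mIL-2, mIL-15, and mTGF-β, so that IL-15 and TGF-β were added together and their effects cannot be told apart. After culture, no further sort before RNA extraction is described, and whether some cells also carried other receptors is not stated.

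Sphingosine-1-phosphate, or S1P, is a lipid kept high in blood and lymph and low inside tissues. T cells follow this gradient out of tissues through S1P receptors, chiefly the one encoded by *S1pr1*. CD69 binds that receptor and takes it off the cell surface, so that cells with CD69 tend to stay. KLF2 is a transcription factor that turns on *S1pr1*, FOXO1 acts upstream of KLF2 and also on *Ccr7* and *Il7r*, and kinases downstream of the T cell receptor and of cytokines keep FOXO1 out of the nucleus. CCR7 brings T cells from blood into lymph nodes. Resident memory T cells are known for low *Klf2* and *S1pr1* together with CD69 on their surface, and the comparison asks whether the T_RM-like cells differ from T_Eff cells at these genes.

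The libraries held 18319013 to 21960760 counts in T_Eff samples and 21178756 to 23622621 in T_RM-like samples. The number of genes with any count was 35130 in T_RM-like replicate 1, 35559 in replicate 2, and 24229 to 24908 in the remaining 4 samples. T_RM-like replicate 3 stood apart from the other two in many genes, and leaving it out raised the number of genes past the threshold from 786 to 3579, so the test of each of the 7 genes that have enough counts is also given without it, as are the counts of genes called in the lists. That fit keeps only T_RM-like replicates 1 and 2, the samples with the most genes with a count. In it, this feature of the libraries and the group cannot be told apart, so it is not a cleaner test. The CD8 T cell markers (8 genes, such as *Cd3e* and *Cd8a*) had counts in all samples and summed to 2616 to 2796 CPM, counts scaled to the size of each library, in T_Eff and 3102 to 4290 in T_RM-like samples. *Cd4* and *Cd40lg*, the B cell genes *Ms4a1* and *Pax5*, the NK cell genes *Ncr1* and *Klra8*, and the endothelial genes *Cdh5*, *Kdr*, *Tek*, and *Emcn* were under 1 CPM in every sample. *S100a8* and *S100a9* of myeloid cells and *Hba-a1* and *Hba-a2* of red cells were at 0. Other markers of these lists were present. The NK cell gene *Klrb1c* was at 9.8, 21.9, and 11.8 CPM in T_Eff and 8.5, 6.7, and 0.09 CPM in T_RM-like replicates 1 to 3. The myeloid gene *Fcgr3* was at 0.69, 1.8, and 1.2 CPM and then at 5.3, 6.1, and 0.14 CPM. The NK cell list summed to 18.8 to 34.9 CPM in T_Eff and 1.94 to 12.1 CPM in T_RM-like samples, and the endothelial list to 52.4 to 65.9 and 25.7 to 43.0 CPM. Summed over each marker list, T_Eff and T_RM-like samples held 35.9 to 41.5 and 18.4 to 26.0 CPM for CD4 T cells, mostly from *Zbtb7b*, 6.49 to 8.20 and 7.29 to 11.3 CPM for B cells, 1.23 to 3.09 and 0.277 to 7.56 CPM for myeloid cells, and at most 1.06 and 1.13 CPM for red cells. A list of 6 markers of resting naive T cells, among them *S1pr1*, *Klf2*, *Ccr7*, and *Il7r*, summed to 505 to 803 CPM in T_Eff and 253 to 347 CPM in T_RM-like samples. The labels do not say whether replicates were separate cultures or animals, so p-values measure the spread between these samples, which may be technical.

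Promoter stretches, the 250 bases before the start of transcription, are shown for *Klf2*, the regulator, and for *S1pr4*, the S1P receptor gene with the most transcript in the T_RM-like cells. They are RefSeq sequences of GRCm38.p6, a build other than the GRCm39 of the counts, and run 5′ to 3′ on the strand of the gene. RefSeq entries were found for 4 of the 7 genes, *S1pr4*, *S1pr5*, *Klf2*, and *Foxo1*. Capitals mark matches, on either strand, to CACCC of KLF factors, GGGCGG of SP and KLF factors, and CTANNNNTAG of MEF2 factors, which act on the *Klf2* promoter downstream of the kinase ERK5.
Klf2 (chr8:72318812-72319061, plus strand): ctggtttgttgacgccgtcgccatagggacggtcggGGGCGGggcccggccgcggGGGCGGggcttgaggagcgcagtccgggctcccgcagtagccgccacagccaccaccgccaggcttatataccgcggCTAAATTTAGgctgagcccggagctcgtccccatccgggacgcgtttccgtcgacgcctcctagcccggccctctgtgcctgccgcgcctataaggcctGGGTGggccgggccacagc
S1pr4 (chr10:81500138-81500387, minus strand): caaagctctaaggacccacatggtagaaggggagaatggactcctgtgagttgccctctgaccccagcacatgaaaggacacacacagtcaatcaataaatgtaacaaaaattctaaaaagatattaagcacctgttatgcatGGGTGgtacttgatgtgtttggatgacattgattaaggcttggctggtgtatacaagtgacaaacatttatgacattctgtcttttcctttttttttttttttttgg
The *Klf2* stretch held 1 MEF2 match, at positions -118 to -109 from the start, which 3.2% of 32851 promoters hold. It also held 2 matches to GGGCGG, found in 32.7% of promoters, and 1 to CACCC, found in 52.0%. The *S1pr4* stretch held 1 match to CACCC, at positions -107 to -103. The FOXO letters TGTTTAC, in 3.17% of promoters, and the SMAD letters GTCTAGAC, in 0.167%, had no match in the 4 stretches. A match describes letters and was not tested as a binding site.

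Of the 7 genes, *Cd69* was called higher and *S1pr1* and *S1pr4* lower in T_RM-like cells. *Klf2*, *Ccr7*, *Foxo1*, and *S1pr5* were not called. A gene is called here at an edgeR adjusted p under 0.05 and an absolute log2 fold change over 0.58. All 7 were among the 26154 genes tested, which needed a count in 3 or more samples, and 6 of them had 10 counts or more in each sample. Of all genes tested, 786 were called, or 3.01%, with 1.52% higher and 1.48% lower. Without T_RM-like replicate 3, *Klf2* joined the genes called lower, and 14.0% of 25478 genes were called. At the same thresholds, DESeq2 called 1 of the 7 higher and 3 lower, beside 2.55% and 2.25% of all genes, and limma-voom called 1 higher and 2 lower, beside 1.30% and 1.51%. The plot of CPM by sample shows the 7 genes.

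**Figure D1:**
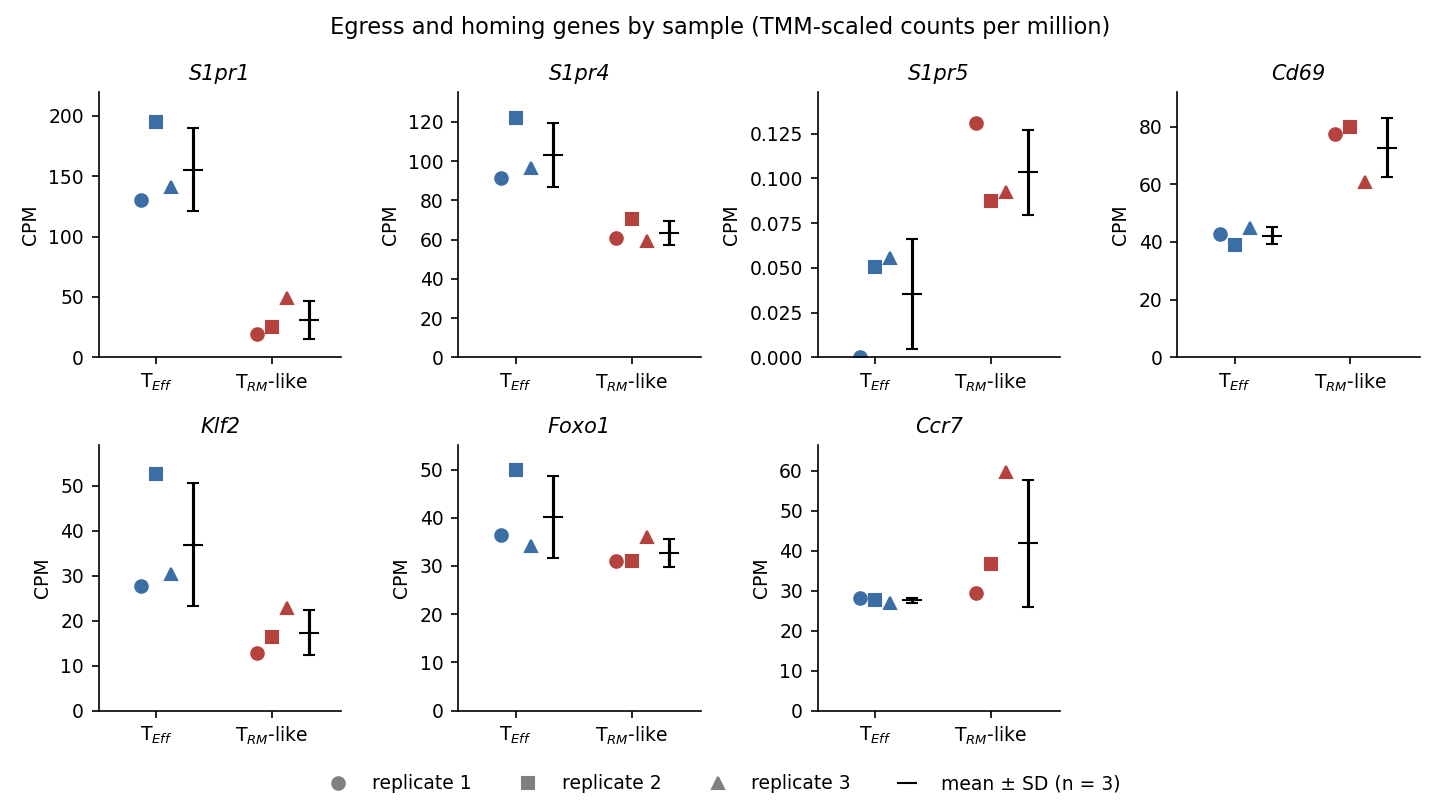
Library-scaled counts (CPM, linear axis from 0) of the 7 egress and homing genes in each of the 3 T_Eff (blue) and 3 T_RM-like (red) samples, with bars for the mean ± SD. *S1pr1*, *S1pr4*, and *Klf2* were lower in every T_RM-like sample than in any T_Eff sample, *Cd69* and *Ccr7* higher, and *Foxo1* overlapped, while *S1pr5* rests on 0 to 3 counts per sample.

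*S1pr1* (ENSMUSG00000045092, GRCm39 chromosome 3, 115504071 to 115508721, minus strand) was at 131, 195, and 141 CPM in T_Eff replicates 1 to 3 and at 19.1, 24.7, and 49.2 CPM in T_RM-like replicates 1 to 3. The groups did not overlap, and the highest T_RM-like sample, replicate 3, lay well below the lowest T_Eff sample. Relative to the T_Eff mean on the log2 CPM scale, the T_RM-like samples lay at -2.99, -2.63, and -1.64. The fitted difference, given here with its standard error (SE), was a 5.01-fold fall, a log2 fold change of -2.33 (SE 0.34, adjusted p = 0.00686 by the edgeR quasi-likelihood test), which placed *S1pr1* 266th of all genes by p. *S1pr1* was called in each of the 6 fits that left out 1 sample, with log2 fold changes from -2.83 without T_RM-like replicate 3 to -2.07. In RNA of mixed cells, fewer cells with the transcript and less transcript per cell cannot be told apart. An antisense gene, *Gm9889*, shares 50 exon bases with *S1pr1* and had counts equal to 0.281% to 1.14% of those of *S1pr1*.

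*S1pr4* (ENSMUSG00000044199, chromosome 10, 81333581 to 81335966, minus strand) encodes an S1P receptor found mainly on blood and lymphoid cells. It was at 91.3, 122, and 96.4 CPM in T_Eff replicates 1 to 3 and at 60.8, 70.4, and 59.3 CPM in T_RM-like replicates 1 to 3. All T_RM-like samples were below all T_Eff samples, and T_RM-like replicate 3 lay with the others. *S1pr4* fell 1.63-fold, a log2 fold change of -0.70 (SE 0.15, adjusted p = 0.0452 from edgeR). The adjusted p was close to the threshold. *S1pr4* remained called without T_RM-like replicate 3 (-0.66, adjusted p = 0.00362 from edgeR) and was not called in the 5 fits that left out any other sample, where the adjusted p from edgeR reached 0.177.

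*S1pr5* (ENSMUSG00000045087, chromosome 9, 21154208 to 21159746, minus strand) encodes the S1P receptor of NK cells and some effector T cells. It had 0, 1, and 1 counts in T_Eff replicates 1 to 3 and 3, 2, and 2 counts in T_RM-like replicates 1 to 3. All 6 values were at or under the floor of 3 counts, so no fold change is given, and a difference was not detectable at this depth (adjusted p = 0.544 from edgeR).

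The other S1P receptor genes were *S1pr2*, whose product inhibits cell migration, and *S1pr3*. *S1pr2* was at 8.65 ± 1.31 CPM in T_Eff and 9.22 ± 0.49 CPM in T_RM-like cells (SD, n = 3), a log2 fold change of 0.09 (SE 0.17, adjusted p = 0.857 from edgeR). *S1pr3* had no count in any T_Eff sample and 131, 117, and 16 counts in T_RM-like replicates 1 to 3. Against a floor of 3 counts per library, the T_RM-like mean of 3.85 CPM was at least 23.2-fold higher, and the lowest sample, replicate 3, at least 4.45-fold higher. *S1pr3* was called (adjusted p = 0.0249 from edgeR) but in none of the 6 fits that left out 1 sample, where the adjusted p from edgeR reached 0.103, and limma-voom did not call it. T_RM-like replicates 1 and 2 had low counts on many genes that were silent in T_Eff samples. Among 3472 protein-coding genes of 2000 to 8000 bases with no count in T_Eff samples, the 95th percentile was 6 counts in T_RM-like replicates 1 and 2 and 0 in replicate 3. This set was picked for having no T_Eff count, and *S1pr3* passed the filter only through its T_RM-like counts. Neither the set nor the test is thus separate evidence of a difference. The part of such low counts in the values of *S1pr3* was not tested.

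Levels of different genes are compared in TPM, counts per kilobase of gene scaled to a fixed sum per sample. *S1pr1* made up 52.0%, 54.8%, and 52.7% of the summed TPM of the 5 S1P receptor genes in T_Eff replicates 1 to 3 and 18.2%, 20.2%, and 37.8% in T_RM-like replicates 1 to 3. *S1pr4* made up 46.4%, 43.9%, and 46.0% and then 73.9%, 73.4%, and 58.2%. *S1pr4* was thus the S1P receptor gene with the most transcript in all T_RM-like samples, and *S1pr1* in all T_Eff samples. The ratio of *S1pr1* to *S1pr4* TPM was 1.12, 1.25, and 1.15 in T_Eff and 0.247, 0.275, and 0.649 in T_RM-like replicates 1 to 3. The summed TPM of the receptor genes was 111, 154, and 115 in T_Eff samples and 43.8, 47.3, and 61.1 in T_RM-like samples, with no overlap.

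**Figure D2:**
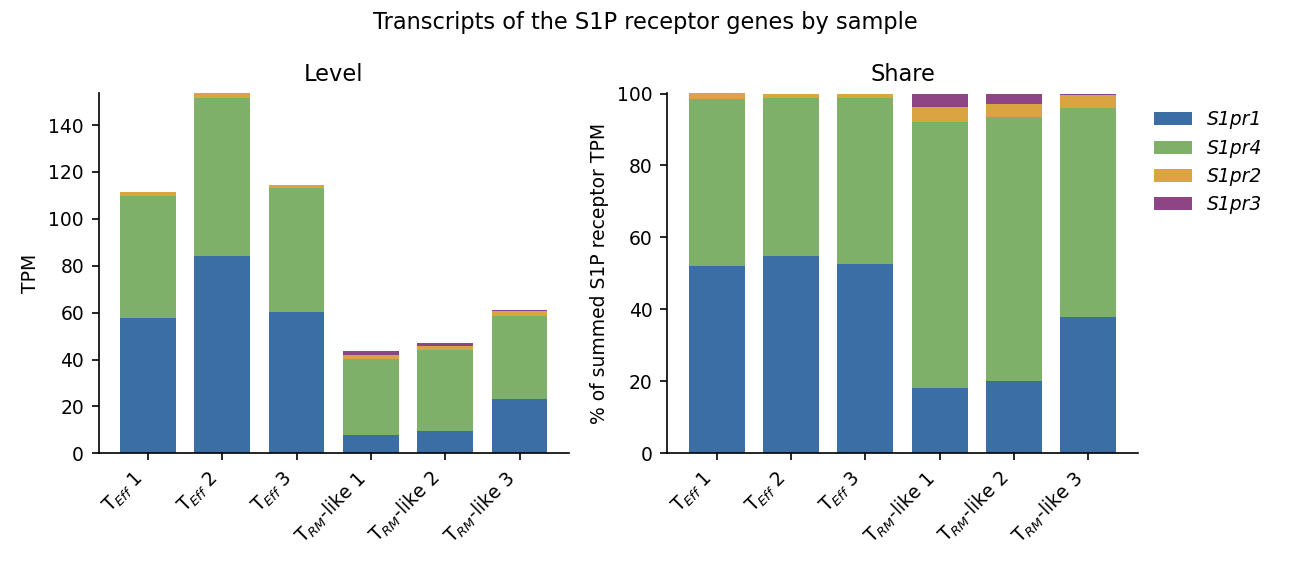
Stacked bars, each a sample, of the TPM (left) and the percent of summed TPM (right) of the S1P receptor genes *S1pr1*, *S1pr4*, *S1pr2*, and *S1pr3*, with *S1pr5* left out because its share was at most 0.152%. The *S1pr1* share lay between 52.0% and 54.8% in T_Eff samples and between 18.2% and 37.8% in T_RM-like samples.

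*Cd69* (ENSMUSG00000030156, chromosome 6, 129244288 to 129252399, minus strand), the partner that takes S1PR1 off the cell surface, was at 42.7, 39.1, and 44.8 CPM in T_Eff replicates 1 to 3. It was at 77.4, 79.8, and 60.9 CPM in T_RM-like replicates 1 to 3. Every T_RM-like sample was above every T_Eff sample, with replicate 3 the closest. *Cd69* rose 1.72-fold, a log2 fold change of 0.79 (SE 0.14, adjusted p = 0.0223 from edgeR). Without T_RM-like replicate 3, its log2 fold change was 0.89 (adjusted p = 7.58e-05 from edgeR), and it was not called in the 5 fits without any other sample, at log2 fold changes of 0.71 to 0.85 and adjusted p from edgeR of up to 0.137. The ratio of *Cd69* to *S1pr1* TPM was 0.589, 0.363, and 0.574 in T_Eff replicates and 7.30, 5.84, and 2.24 in T_RM-like replicates 1 to 3. *Cd69* was the smaller of the pair in all T_Eff samples and the larger in all T_RM-like samples. RNA levels do not measure CD69 or S1PR1 on the cell surface.

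*Klf2* (ENSMUSG00000055148, chromosome 8, 73072726 to 73075502, plus strand) was at 27.7, 52.6, and 30.3 CPM in T_Eff replicates 1 to 3 and at 12.9, 16.3, and 22.8 CPM in T_RM-like replicates 1 to 3. The groups did not overlap, but T_Eff replicate 2 was far above its group, and T_RM-like replicate 3 came close to T_Eff replicate 1. The log2 fold change was -1.09 (SE 0.28), and *Klf2* missed the threshold (adjusted p = 0.0891 from edgeR). Its value was -1.35 and called without T_RM-like replicate 3 (adjusted p = 0.00128 from edgeR) and -0.74 without T_Eff replicate 2 (adjusted p = 0.281 from edgeR). DESeq2 called it at -1.07 (adjusted p = 0.0144). *Eps15l1* overlaps *Klf2* on the opposite strand and shares no exon base with it. Its counts equalled 109% to 358% of those of *Klf2*. The strand setting of the counts is not given, and whether reads of *Eps15l1* entered the *Klf2* counts was not tested.

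*Foxo1* (ENSMUSG00000044167, chromosome 3, 52175757 to 52260642, plus strand) was at 36.4, 50.0, and 34.2 CPM in T_Eff replicates 1 to 3 and at 31.0, 31.1, and 36.1 CPM in T_RM-like replicates 1 to 3. The groups overlapped, with T_RM-like replicate 3 above T_Eff replicate 3. The log2 fold change was -0.30 (SE 0.17, adjusted p = 0.488 from edgeR), and -0.38 without T_RM-like replicate 3 (adjusted p = 0.0976 from edgeR). Since FOXO1 is mainly controlled by where it sits in the cell, its RNA does not measure its activity.

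T_Eff replicate 2 was the highest T_Eff sample for *S1pr1*, *S1pr4*, *Klf2*, and *Foxo1* and the lowest for *Cd69*. Relative to the T_Eff mean on the log2 CPM scale, it lay at 0.35 for *S1pr1*, 0.25 for *S1pr4*, 0.57 for *Klf2*, 0.33 for *Foxo1*, and -0.11 for *Cd69*. Each of the 8 marker lists was also highest in this sample among T_Eff samples, such as the NK cell markers at 34.9 CPM against 18.8 and 24.4. The resting naive T cell markers, which include *S1pr1* and *Klf2*, were at 803 CPM against 505 and 509. Of their other genes, *Tcf7* was at 151 CPM against 90.9 and 82.5, and *Lef1* at 128 CPM against 90.1 and 87.7. Their part in these values was not tested. T_RM-like replicate 3 was the T_RM-like sample nearest to the T_Eff mean for *S1pr1*, *Klf2*, *Cd69*, and *Foxo1*. For *Ccr7* it was the farthest, and for *S1pr4* it lay beside the other two.

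*Ccr7* (ENSMUSG00000037944, chromosome 11, 99035022 to 99045911, minus strand), the chemokine receptor for lymph node entry, was at 28.1, 27.7, and 26.9 CPM in T_Eff replicates 1 to 3. It was at 29.3, 36.6, and 59.7 CPM in T_RM-like replicates 1 to 3. The T_Eff samples lay close together, with an SD of 0.61 CPM (n = 3), and no T_RM-like sample was below them, but replicate 1 was barely above and replicate 3 far above. The log2 fold change was 0.60 (SE 0.24, adjusted p = 0.279 from edgeR), and 0.25 without T_RM-like replicate 3 (adjusted p = 0.181 from edgeR). An antisense gene, *Gm57398*, shares 133 exon bases with *Ccr7* and had counts equal to 0.548% to 1.44% of those of *Ccr7*.

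The ratio of *Ccr7* to *S1pr1* TPM was 0.331, 0.219, and 0.294 in T_Eff replicates and 2.36, 2.28, and 1.87 in T_RM-like replicates 1 to 3. *S1pr1* exceeded *Ccr7* in all T_Eff samples, and *Ccr7* exceeded *S1pr1* in all T_RM-like samples.

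The sign of the log2 fold change of each of the 7 genes was the same in all 6 fits that left out 1 sample as with all samples, and *S1pr5* rests on 0 to 3 counts. The share of tested genes whose groups did not overlap was 20.3%, with 10.6% higher and 9.71% lower in T_RM-like cells. Apart from *S1pr5*, the genes that did not overlap were *S1pr1*, *S1pr4*, and *Klf2*, which were lower, and *Cd69* and *Ccr7*, which were higher.

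**Figure D3:**
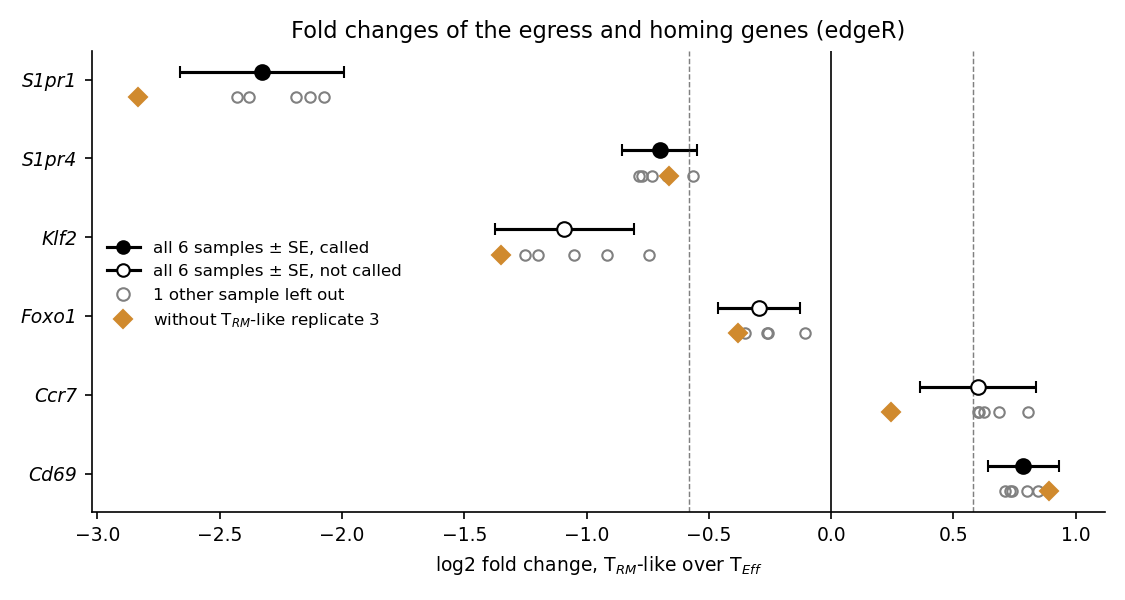
Log2 fold changes (T_RM-like over T_Eff, edgeR) of 6 genes with bars for the standard error (SE), filled where called, above the values from 6 fits that each left out 1 sample, with dashed lines where the size is 0.58. No value crossed 0, and leaving out T_RM-like replicate 3 moved *S1pr1* to -2.83, *Klf2* to -1.35, and *Ccr7* to 0.25.

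By mean TPM, the order in T_Eff cells was *S1pr1* at 67.4 ± 14.4, *S1pr4* at 57.2 ± 8.77, *Cd69* at 33.1 ± 2.26, *Klf2* at 26.4 ± 9.65, *Ccr7* at 18.5 ± 0.73, and *Foxo1* at 6.13 ± 1.29 (SD, n = 3). Of these neighbours, *S1pr1* and *S1pr4*, and *Cd69* and *Klf2*, overlapped between samples. In T_RM-like cells, the order was *Cd69* at 55.2 ± 3.34, *S1pr4* at 34.2 ± 1.64, *Ccr7* at 27.9 ± 13.3, *S1pr1* at 13.5 ± 8.31, *Klf2* at 12.3 ± 4.72, and *Foxo1* at 4.91 ± 0.92. There, *S1pr4* overlapped *Ccr7*, *Ccr7* overlapped *S1pr1*, and *S1pr1* overlapped *Klf2*. *Cd69* stood above all others in T_RM-like samples. *S1pr1* had a mean TPM above 94.6% of tested genes in T_Eff cells and above 77.7% in T_RM-like cells, while *Cd69* went from 89.2% to 93.6%.

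The other genes of the pathway were taken from 6 lists written from their roles, 93 genes in all, of which 92 were tested. Of these, 7 were called higher and 7 lower, beside 1.52% and 1.48% of all genes tested. The genes called higher include *S1pr3*, which passed the filter only through its T_RM-like counts, so its call is not separate evidence. For comparison, the median log2 fold change of all genes tested was 0.02. Of 12 genes of S1P synthesis, transport, and breakdown, edgeR and DESeq2 called 0 and limma-voom 1, higher, beside 1.30% of all genes called higher by limma-voom. At an unadjusted p under 0.05 from edgeR, 1 was higher and 1 lower, beside 8.35% and 6.45% of all genes tested. Their median log2 fold change was 0.09. *Sphk1*, a kinase that makes S1P, had only 0 to 5 counts per sample. Of 22 genes that act downstream of S1P and chemokine receptors, 3 rose, beside 1.52% of all genes, with a median of 0.06. edgeR, DESeq2, and limma-voom called 0 of them lower. At an unadjusted p under 0.05 from edgeR, 5 were higher and 6 lower, beside 8.35% and 6.45% of all genes. *Gna12*, a G protein subunit that couples receptors to RHOA, rose from 14.3 ± 1.39 to 45.6 ± 12.3 CPM (log2 fold change 1.67, adjusted p = 0.00366 from edgeR). The arrestin genes, whose products uncouple activated receptors from G proteins, rose as well. They were *Arrb1*, from 53.1 ± 11.6 to 107 ± 3.20 CPM (1.01, adjusted p = 0.0154 from edgeR), and *Arrb2*, from 152 ± 8.96 to 241 ± 22.4 CPM (0.67, adjusted p = 0.0308 from edgeR). *Gna12* was called in all 6 fits that left out 1 sample, *Arrb1* in 3, and *Arrb2* in 1, the fit without T_RM-like replicate 3.

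Of 16 genes of lymph node entry and retention, 1 rose and 3 fell, beside 1.52% and 1.48% of all genes. Their median log2 fold change was -0.30. The integrin chains *Itga4* and *Itgb1*, which together form VLA-4, fell, with log2 fold changes of -2.25 and -2.01 (adjusted p = 0.000151 and 0.000374 from edgeR). *Itga4* went from 127 ± 15.5 to 26.7 ± 1.93 CPM and *Itgb1* from 673 ± 74.0 to 167 ± 22.3 CPM. *Cxcr4*, a receptor for CXCL12 that holds cells in bone marrow, fell by 2.43 (adjusted p = 0.0355 from edgeR). Its values were 24.6, 23.2, and 29.0 CPM in T_Eff replicates and 1.92, 2.75, and 9.64 CPM in T_RM-like replicates 1 to 3, and it was called in 1 of the 6 fits that left out 1 sample, the fit without T_RM-like replicate 3 (-3.46). *Gcnt1*, an enzyme that branches the sugars of selectin ligands, rose from 7.86 ± 0.85 to 38.3 ± 12.2 CPM (2.29, adjusted p = 0.00183 from edgeR).

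Of 24 tested genes that act upstream of FOXO1 or KLF2, 2 rose and 1 fell, beside 1.52% and 1.48% of all genes. Their median log2 fold change was -0.10. *Sgk1*, a kinase that excludes FOXO proteins from the nucleus, fell from 94.6 ± 6.61 to 20.4 ± 4.81 CPM (-2.21, adjusted p = 0.000418 from edgeR). *Inpp5d*, the phosphatase SHIP-1 that opposes PI3 kinase, rose from 126 ± 7.77 to 240.3 ± 11.4 CPM (0.93, adjusted p = 0.00487 from edgeR). *Mef2a*, a factor of the family that acts on the *Klf2* promoter, rose from 103 ± 7.40 to 190.3 ± 43.0 CPM (0.89, adjusted p = 0.0352 from edgeR). *Mef2a* was called in 1 of the 6 fits that left out 1 sample, the fit without T_RM-like replicate 3. *Foxo3*, the other main FOXO gene of T cells, was at 58.0 ± 12.1 and 47.3 ± 6.33 CPM (-0.29, adjusted p = 0.516 from edgeR).

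Of 19 genes linked to FOXO1 or KLF2, 3 fell, beside 1.48% of all genes called lower. Their median log2 fold change was -0.59, with 15 of 19 below 0, beside 12699 of the 26154 genes tested. The list does not separate genes that these factors raise from genes that they lower. Its median therefore does not measure the activity of FOXO1 or KLF2. edgeR, DESeq2, and limma-voom called 0 of the 19 higher. At an unadjusted p under 0.05 from edgeR, 1 was higher and 11 lower, beside 8.35% and 6.45% of all genes. DESeq2 called 7 of them lower, beside 2.25% of all genes, and limma-voom 4, beside 1.51%. The genes that fell in the edgeR test were *Btla*, a coinhibitory receptor (-1.20, adjusted p = 0.00204 from edgeR), *Eomes*, a T-box factor of memory cells (-2.09, adjusted p = 0.00308 from edgeR), and *Cxcr3*, a chemokine receptor (-1.21, adjusted p = 0.00543 from edgeR). Without T_RM-like replicate 3, 10 of the 19 were called lower and 1 higher. *Il7r*, the IL-7 receptor chain and a FOXO1 target, was at 138, 249.6, and 140.3 CPM in T_Eff replicates and 83.6, 86.8, and 26.2 CPM in T_RM-like replicates 1 to 3. The groups did not overlap, yet *Il7r* was not called (-1.42, adjusted p = 0.138 from edgeR). It was called without T_RM-like replicate 3 (-1.05, adjusted p = 0.00333 from edgeR) and by DESeq2 (-1.41, adjusted p = 0.0119). The summed endothelial markers, mostly *Pecam1*, which T cells also express, were 52.4 to 65.9 CPM in T_Eff and 25.7 to 43.0 CPM in T_RM-like samples, and the NK cell markers, which include *Eomes*, 18.8 to 34.9 and 1.94 to 12.1 CPM. Their part in these results was not tested.

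Without T_RM-like replicate 3, 6.38% of all genes tested were called higher and 7.67% lower. In that fit, 1 gene of S1P synthesis, transport, and breakdown was called higher and 0 lower, 4 genes of receptor signaling higher and 1 lower, 2 genes of lymph node entry and retention higher and 4 lower, and 3 genes upstream of FOXO1 or KLF2 higher and 3 lower. The log2 fold changes were then -2.32 for *Itga4*, -2.14 for *Itgb1*, 2.52 for *Gcnt1*, -2.42 for *Sgk1*, 0.96 for *Inpp5d*, 1.05 for *Mef2a*, -1.21 for *Btla*, -1.89 for *Eomes*, and -1.08 for *Cxcr3*, all called. *S1pr2* (0.04) and *Foxo3* (-0.20) were not called.

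**Figure D4:**
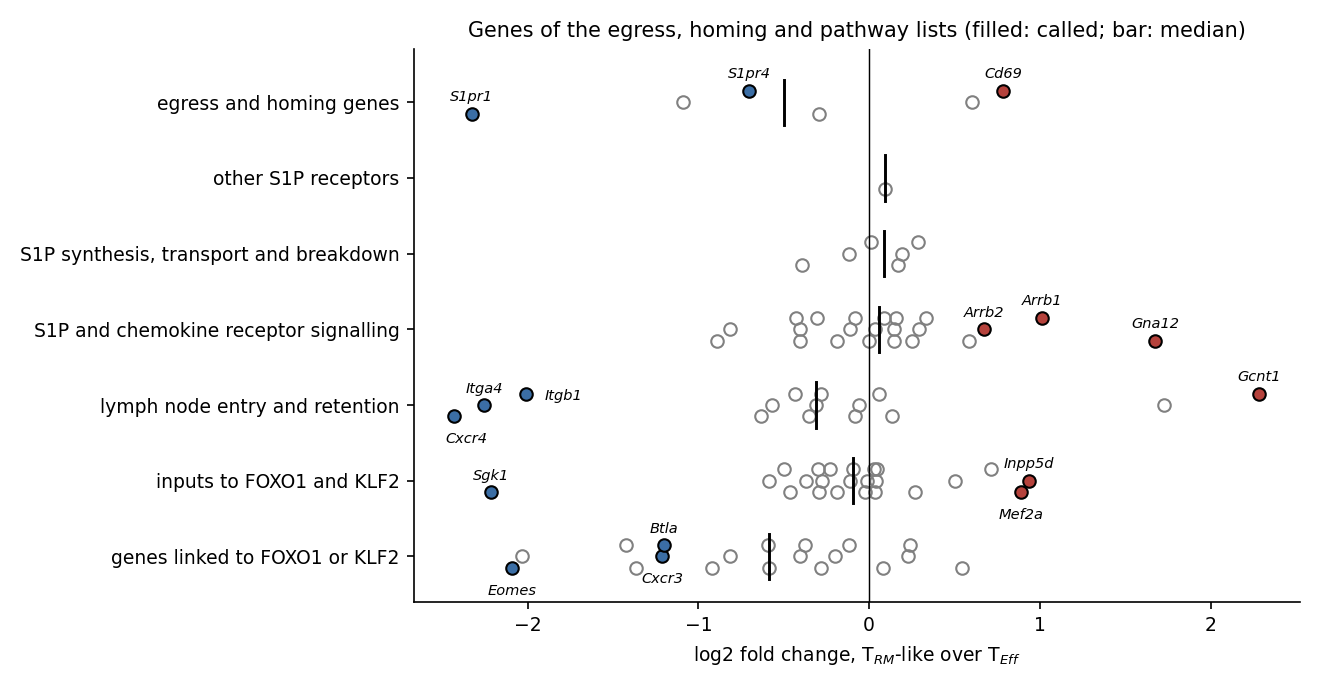
Log2 fold changes (T_RM-like over T_Eff, edgeR) of the genes with 10 counts or more in each sample in the egress and homing group and in the 6 pathway lists, filled and named where called (red higher, blue lower), with a bar for the median of each list's points. *Cxcr4* was the lowest point at -2.43, and the list linked to FOXO1 or KLF2 had its median at -0.59.

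The genes whose log2 CPM followed each gene most closely over the 6 samples were sought among 10880 protein-coding genes with 10 counts or more in each sample. The correlations (Pearson's r, across 6 samples in 2 groups) mostly reflect the group difference and the position of single replicates. Closest to *S1pr1* were *Prkcq*, the kinase PKC-theta (r = 0.998), *Col11a2* (0.997), and *Dennd2d* (0.997). Closest to *S1pr4* were *Snx30*, *Lilrb4b*, and *Inpp5b* (0.996 to 0.997), and closest to *Klf2* were *Klhl6* (0.995), *Cacnb3* (0.993), and *Elf1* (0.987). *Cd69* was followed by *Capg*, an actin-capping protein (0.999), *Aldoc*, a glycolytic enzyme (0.998), and *Klhl25* (0.998). *Foxo1* was followed by *Zbtb40* (0.998), *Oser1* (0.995), and *Piezo1* (0.993). *Ccr7* was followed by *Lpin1* (0.986), *Gstp1* (0.985), and *Erap1* (0.984), which like *Ccr7* were highest in T_RM-like replicate 3. *Gstp1*, for example, was at 48.6 to 49.4 CPM in T_Eff samples and at 54.6, 61.0, and 78.9 CPM in T_RM-like replicates 1 to 3.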

How the data were processed

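Bulk RNA sequencing of 6 samples, 3 T_Eff and 3 T_RM-like, was analysed, with groups and replicate numbers from the sample labels. The authors trimmed the reads with Cutadapt 4.8, mapped them to GRCm39 and counted them per GENCODE gene with Rsubread, and deposited the raw, unnormalized counts beside gene lengths in bases. The strand setting and the treatment of reads that map to several places are not given in the sources used here. The sources differ on IL-2, which the RNA sequencing methods and labels call mouse and the expansion methods human. A batch that the study removed is not named and was not removed here.

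Gene names and positions were read from a newer GENCODE release for GRCm39, which held 56620 of the 57126 genes. CPM are counts scaled by TMM library sizes, and TPM are counts per kilobase scaled to a fixed sum per sample. Counts were tested with edgeR 4.0.16 (glmQLFit, glmQLFTest) in R 4.3.3 on genes with a count of 1 or more in 3 or more samples, with Benjamini-Hochberg adjustment over all genes tested. The thresholds were those of the study, an adjusted p under 0.05 and an absolute log2 fold change over 0.58. The standard error is the size of the log2 fold change divided by the square root of F. The test was also run on simulated counts with known changes, which were larger than those of *S1pr4* and *Cd69*. That run therefore does not bear on changes as small as theirs. The alternatives were DESeq2 1.42.0, limma-voom (limma 3.58.1), DESeq2's size factors, library totals, no filter, filterByExpr, at least 10 counts in every sample, the adjusted p alone, glmTreat at 1.5-fold, the replicate number as a block, and each sample left out. For a gene without counts in a group, the floor was 3 counts per library, and it covers counting error only.

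The 7 genes and the lists were chosen with earlier results of these data known. The genes named are the 7, up to 6 called genes with the smallest p from each list, *S1pr2*, *S1pr3*, *Foxo3*, *Il7r*, and *Sphk1*, the 3 genes most like each of the 7, and cell type markers. Overlapping genes were named from the annotation. Some genes of the lists and markers are not reported here and are left out of the counts of the lists.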

Additional observations from a re-analysis of the deposited data

How the results depend on the processing

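No log2 fold change of the 6 genes other than *S1pr5* changed sign under any alternative run. *S1pr1*, called with all samples, was called under every alternative, and *Foxo1* under none. *S1pr4* was not called with DESeq2's size factors (-0.68, adjusted p = 0.0526 from edgeR), when 10 counts were required in each sample (-0.69, adjusted p = 0.0561 from edgeR), or with glmTreat against a 1.5-fold change (-0.70, adjusted p = 0.884). *Cd69* was not called with glmTreat (0.79, adjusted p = 0.543). Leaving out 1 sample gave -0.79 to -0.56 for *S1pr4*, 0.71 to 0.89 for *Cd69*, -1.35 to -0.74 for *Klf2*, and 0.25 to 0.80 for *Ccr7*. *Klf2* was called with DESeq2 (-1.07, adjusted p = 0.0144) and with no filter (-1.10, adjusted p = 6.25e-08 from edgeR), and *Ccr7* with no filter (0.60, adjusted p = 0.0166 from edgeR). Of the 7 genes, 2 were called higher with no filter, beside 1002 of 42234 genes tested, and 0 with glmTreat, beside 160 of 26154. With DESeq2's size factors, 1 was called lower, beside 382 of 26154 genes. With at least 10 counts, 1 was called lower, beside 280 of 14822, and with glmTreat 1, beside 179 of 26154. Without 1 sample, 0 to 1 were called higher and 1 to 3 lower, beside 119 to 1625 and 144 to 1954 of all genes. Of the genes of the 6 lists, glmTreat called 3 higher, beside 160 of 26154 genes tested. DESeq2 called 12 of them lower, beside 2.25% of all genes, and the fit with no filter 15, beside 866 of 42234. In the fits without 1 sample, 2 to 11 were higher and 6 to 16 lower, beside 119 to 1625 and 144 to 1954 of all genes. Without T_RM-like replicate 3, *Klf2* came 4th and *S1pr1* 5th by TPM in T_RM-like cells. The number of all genes called, 786, was 1256 with DESeq2, 1868 with no filter, 339 with glmTreat, and 263 to 443 without any 1 sample other than T_RM-like replicate 3, and 3579 without that one. With no filter, and with the replicate block, edgeR pooled the spread of all genes completely, and the causes of the other changes were not tested. Of 512 alternative values, 434 stayed on their side of the threshold, within 1.5 times the count with all samples, or at the same place by level. These values include the main fit judged by the adjusted p alone, so the total does not measure how firm any single call is. Counts of 0 to 3 limit *S1pr5*.

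The replicate numbers were not taken to pair the samples. The correlation of deviations from the group means over 14822 genes was -0.292, 0.309, and 0.389 for numbers 1 to 3, and T_RM-like replicate 1 correlated best with T_Eff replicate 2, at 0.519. With the replicate number as a block, 2034 genes were called, and with the block and at least 10 counts in every sample, 903 against 579 without the block. *Klf2* was called in both (-1.07, adjusted p = 1.33e-07, and -1.06, adjusted p = 0.0180, from edgeR). With the block, 16 genes of the lists were called lower, beside 1079 of 26154 genes, and 12 with at least 10 counts, beside 460 of 14822.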
